A study of Homo sapiens with 18 samples.

Results

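Hep3B cells given fucoxanthin (FUCO) at 2 µM were compared with Hep3B cells given FUCO at 1 µM, the highest and the middle dose of the series. The members are the 3 libraries titled FUCO-2 and the 3 titled FUCO-1, which are 6 of the 18 RNA-seq libraries, chosen by their titles alone. FUCO is a carotenoid of brown seaweeds, and Hep3B is an established human hepatoma line. Both groups were loaded with free fatty acids (FFA) as a cell model of steatosis, so FFA was shared by the 2 groups and the dose was the only labelled difference. The other libraries were cells without FFA (Con), cells with FFA alone (Model), cells with FFA and FUCO at 0.5 µM (FUCO-0.5), and cells with FFA and Resmetirom (RES), 3 of each. The FFA concentration and the exposure time of these libraries are not given in the sources used here, and all of them come from 1 cell line in culture, with no other liver cell types. The methods call the 3 libraries of a condition biological replicates, and nothing says whether they were grown on separate days. The p-values set the dose difference against the variation between libraries of a group, estimated over all 18 libraries. Whether that variation includes differences between days is not known.

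Cells answer damage to proteins, metals and oxidants with sets of genes that overlap in part. Heat shock factor drives chaperones that refold proteins, the metal-sensing factor MTF1 drives metallothioneins and the zinc exporter SLC30A1, NRF2 drives enzymes of glutathione and haem metabolism, and ATF4 drives amino acid uptake and synthesis in the integrated stress response. Immediate early genes such as the EGR, FOS and NR4A families are switched on within minutes by growth factor and stress signals, while albumin, transferrin and fibrinogen are the secreted products of a differentiated hepatocyte.

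The 6 libraries held between 16916688 and 20203213 counts. The CPM values below divide each count by the library total and its TMM factor. Hepatocyte products were abundant in them, with 380958 to 592823 ALB counts and 37234 to 56002 AFP counts. The leukocyte genes PTPRC and CD163, the endothelial gene CDH5 and the fibroblast gene COL3A1 had between 0 and 1 counts in any of the 6. Other markers of the same lists were detected, with 198 to 373 counts of LYZ, 48 to 88 of CD14, 51 to 92 of LUM, 12 to 30 of COL1A1 and 11 to 27 of PECAM1. The summed macrophage and leukocyte list was at 15.67 to 22.12 CPM in FUCO-1 and 14.47 to 16.75 CPM in FUCO-2. The stellate and fibroblast list was at 18.46 to 21.41 and 16.88 to 19.51 CPM, and the endothelial list at 1.142 to 1.732 and 1.036 to 1.702 CPM. The cholangiocyte list was much higher, at 782.5 to 874.3 and 816.8 to 895.3 CPM. Among cholangiocyte genes EPCAM had 8194 to 10987 counts, KRT19 2854 to 3933 and SOX9 1789 to 3408, while SPP1 had 14 to 23 and KRT7 0 to 3. FUCO-2 replicate 1 and FUCO-1 replicate 3 stood apart from their groups. Between replicates 2 and 3 of FUCO-2 the chi-square statistic per degree of freedom over genes was 4.48, and between replicate 1 and each of them it was 14.4 and 13.9. In FUCO-1 it was 3.61 between replicates 1 and 2, against 7.65 and 8.36 for replicate 3. The first principal component of the 6 libraries, with 36% of the variance, placed the FUCO-1 libraries between -24.1 and -8.41 and the FUCO-2 libraries between 11.4 and 21.5. The second component, with 24.7%, placed FUCO-2 replicate 1 at -25.2 and FUCO-1 replicate 3 at -11.9, and the other 4 between 8.19 and 9.85. Counts of calls in each list without these 2 libraries are given with the main counts where they differ.

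The rise from 1 to 2 µM FUCO changed 84 differentially expressed genes (DEGs) of 14557 tested, 0.577%, by edgeR's quasi-likelihood test (Benjamini-Hochberg adjusted p under 0.05, with a log2 fold change above 1 or below -1). Of these, 78 were higher at 2 µM (0.536%) and 6 were lower (0.0412%). In all 84 the 3 libraries of one dose lay wholly above the 3 of the other, which was so for 20.3% of the genes tested. The DEGs were called from these same libraries, so their separation is a description and adds no support. By the adjusted p alone, 917 genes passed (6.3%), 593 higher (4.07%) and 324 lower (2.23%), with a median absolute log2 fold change of 0.42. The median over all tested genes was 0.01. From 0.5 to 1 µM no DEG was found by the same fit, 1 gene passed the adjusted p (0.00687%, KLF6, lower) and 1557 (10.7%) had an unadjusted p under 0.05, compared with 2951 (20.3%) from 1 to 2 µM. Without FUCO-1 replicate 3 the number of DEGs was 54, without FUCO-2 replicate 2 it was 62 with none lower, and without FUCO-2 replicate 1 and FUCO-1 replicate 3 together it was 39, of which 35 were among the 84.

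Metallothioneins, small cysteine-rich proteins that bind zinc and copper, were among the genes with the largest rises. For MT2A the FUCO-1 libraries held 3.96, 6.99 and 3.20 CPM and the FUCO-2 libraries 30.5, 43.0 and 19.6 CPM. The groups did not overlap, and the log2 fold change was 2.72 ± 0.25 (SE, n = 3 and 3, edgeR adjusted p = 2.15e-07). MT1X went from 0.446, 0.710 and 0.286 CPM to 2.48, 3.46 and 1.97 CPM, a log2 fold change of 2.44 ± 0.33 (edgeR adjusted p = 8.03e-05). MT1E was more scattered, with 0.149, 1.09 and 0.457 CPM at 1 µM and 2.02, 3.35 and 1.5 CPM at 2 µM. Its log2 fold change was 2.04 ± 0.43 (edgeR adjusted p = 0.00579), and it no longer passed without FUCO-2 replicate 2. SLC30A1, which exports zinc from the cell, rose from 30.9, 30.3 and 22.7 CPM to 59.2, 65.4 and 46.7 CPM, with a log2 fold change of 1.03 ± 0.14 (edgeR adjusted p = 6.37e-05). In all, 4 of the 8 tested genes of the list rose, compared with 4.07% of all tested genes, and none fell. The median log2 fold change was 0.55. The other 4, including the factor MTF1 itself at a log2 fold change of 0.03, did not pass. Without FUCO-2 replicate 1 and FUCO-1 replicate 3 together 3 of the 8 rose, and MT1E was at 2.01 with an edgeR adjusted p of 0.0549. The 3 metallothioneins lie close together on chromosome 16, MT2A at 56608584 to 56609497, MT1E at 56625781 to 56627112 and MT1X at 56682470 to 56684196 (GRCh38.p14). They are near-identical in sequence, and how reads matching several of them were counted is not given in the sources used here, so the split between them is uncertain.

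The promoters of MT2A and MT1X are shown because the letters read by MTF1 are known. Capitals mark the metal response element, searched as TGCACNC or TGCGCNC on both strands, in the 250 bases before the RefSeq start.
MT2A, chr16:56608334-56608583, plus strand: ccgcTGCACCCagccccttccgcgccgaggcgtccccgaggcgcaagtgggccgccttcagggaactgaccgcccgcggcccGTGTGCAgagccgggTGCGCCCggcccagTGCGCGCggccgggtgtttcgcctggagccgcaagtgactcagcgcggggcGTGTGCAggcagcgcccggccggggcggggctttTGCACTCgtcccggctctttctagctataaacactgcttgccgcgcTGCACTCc
MT1X, chr16:56682220-56682469, plus strand: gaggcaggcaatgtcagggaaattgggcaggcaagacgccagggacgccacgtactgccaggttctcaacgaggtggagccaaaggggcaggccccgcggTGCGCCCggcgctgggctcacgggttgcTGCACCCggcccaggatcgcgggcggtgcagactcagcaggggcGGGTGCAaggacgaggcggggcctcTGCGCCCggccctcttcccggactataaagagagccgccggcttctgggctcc
MT2A holds 7 matches before the start and MT1X holds 4. The letters are short and common. Within the 300 bases from 250 before to 50 after the start, they occur in 38.7% of the 11524 RefSeq promoters matched to tested genes and in 43.4% of the 53 promoters matched to the 78 DEGs that rose. A match is a description of the letters and not a measured binding site.

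Most chaperones of the heat shock response rose. HSPA6, an inducible HSP70 that is nearly silent in unstressed cells, had 1.78, 1.64 and 2.17 CPM at 1 µM and 9.73, 10.8 and 6.48 CPM at 2 µM. Its lowest FUCO-2 library was above its highest FUCO-1 library, and the log2 fold change was 2.27 ± 0.20 (edgeR adjusted p = 2.06e-07). HSPA6 lies at 161524540 to 161526894 on chromosome 1 and has close paralogs among the HSP70 genes. HSPH1, a nucleotide exchange factor of HSP70, rose from 71.4, 73.2 and 59.5 CPM to 109, 140 and 106 CPM (log2 fold change 0.80 ± 0.11, edgeR adjusted p = 7.44e-05). CHORDC1, a cochaperone of HSP90, was at 27.8, 23.7 and 24.2 CPM and then at 42.2, 43.9 and 39.3 CPM (0.73 ± 0.10 on the log2 scale, edgeR adjusted p = 6.37e-05). DNAJB1, the HSP40 that delivers clients to HSP70, went from 136, 125 and 149 CPM to 193, 211 and 201 CPM (0.56 ± 0.08, edgeR adjusted p = 0.000167). Of the 26 tested members of the list, 16 rose by the adjusted p, compared with 4.07% of all tested genes, and none fell. All 26 had a fold change above 0 on the log2 scale, and the median was 0.36. The 2 groups did not overlap, with FUCO-2 higher, for 18 of the 26, compared with 11.1% of all tested genes. The number that rose was 12 without FUCO-2 replicate 1 and FUCO-1 replicate 3 together, 9 without FUCO-1 replicate 1, 8 without FUCO-1 replicate 3 and 6 without FUCO-2 replicate 2.

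A heat shock element was searched as 3 units of GAA, or its complement TTC, in alternation and 2 bases apart, which is a rarer pattern than the metal response element. It occurs in 0.321% of the 11524 promoters of tested genes and in 5 of the 23 matched promoters of the chaperone list, which are those of HSPA6, HSPA8, DNAJA1, CHORDC1 and SERPINH1. Among promoters of the 78 DEGs that rose it occurs in 1, that of HSPA6. Capitals mark the element in the stretches below, each with 20 bases on either side.
HSPA6, chr1:161524446-161524498, plus strand: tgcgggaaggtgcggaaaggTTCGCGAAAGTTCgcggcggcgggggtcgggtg
CHORDC1, chr11:90223067-90223129, minus strand: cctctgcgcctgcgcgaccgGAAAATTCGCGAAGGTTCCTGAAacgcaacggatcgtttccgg
HSPA8, chr11:123062159-123062211, minus strand: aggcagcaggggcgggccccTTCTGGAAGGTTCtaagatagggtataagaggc
In CHORDC1, 3 matches overlap into one run of alternating units. HSPA8, the constitutive HSP70, rose from 923, 887 and 922 CPM to 1092, 1306 and 1187 CPM, a log2 fold change of 0.39 ± 0.10 (edgeR adjusted p = 0.0182). Sequences and coordinates are from RefSeq, GRCh38.p14.

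Antioxidant genes controlled by NRF2 rose in part. HMOX1, which opens the haem ring, had 35.1, 37.0 and 34.5 CPM at 1 µM and 81.8, 94.8 and 62.4 CPM at 2 µM, a log2 fold change of 1.17 ± 0.13 (edgeR adjusted p = 8.4e-06). GCLM, the regulatory subunit of the enzyme that starts glutathione synthesis, rose from 26.7, 23.7 and 19.7 CPM to 40.8, 46.8 and 40.7 CPM (0.87 ± 0.14 on the log2 scale, edgeR adjusted p = 0.000457). ME1, a source of NADPH, rose from 48.2, 43.1 and 33.6 CPM to 60.6, 78.5 and 68.9 CPM (0.73 ± 0.11, edgeR adjusted p = 0.000281). For SLC7A11, the cystine importer, the values were 63.0, 48.6 and 43.5 CPM and then 77.1, 90.3 and 84.8 CPM (0.70 ± 0.10, edgeR adjusted p = 0.000137). Each of these genes had no overlap between the doses. AKR1B10, a reductase of aldehydes and retinal, passed at a log2 fold change of 1.08 ± 0.30 (edgeR adjusted p = 0.0327), with 1.29, 1.58 and 1.03 CPM against 2.48, 3.73 and 2.02 CPM, and was lost without FUCO-1 replicate 1, FUCO-1 replicate 3 or FUCO-2 replicate 2. Of the 34 members 11 rose, 1 fell and 22 did not pass, and the median log2 fold change was 0.25. Over all tested genes 4.07% rose and 2.23% fell. The gene that fell was EPHX1, a microsomal epoxide hydrolase, from 162, 149 and 199 CPM to 117, 99.3 and 132 CPM (-0.55 ± 0.12, edgeR adjusted p = 0.0065). Common members such as NQO1 and TXN, at 0.21 and 0.09 on the log2 scale, did not pass. The number that rose was 7 without FUCO-1 replicate 1, 6 without FUCO-1 replicate 3, 5 without FUCO-2 replicate 2 and 7 without FUCO-2 replicate 1 and FUCO-1 replicate 3 together.

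**Figure D1:**
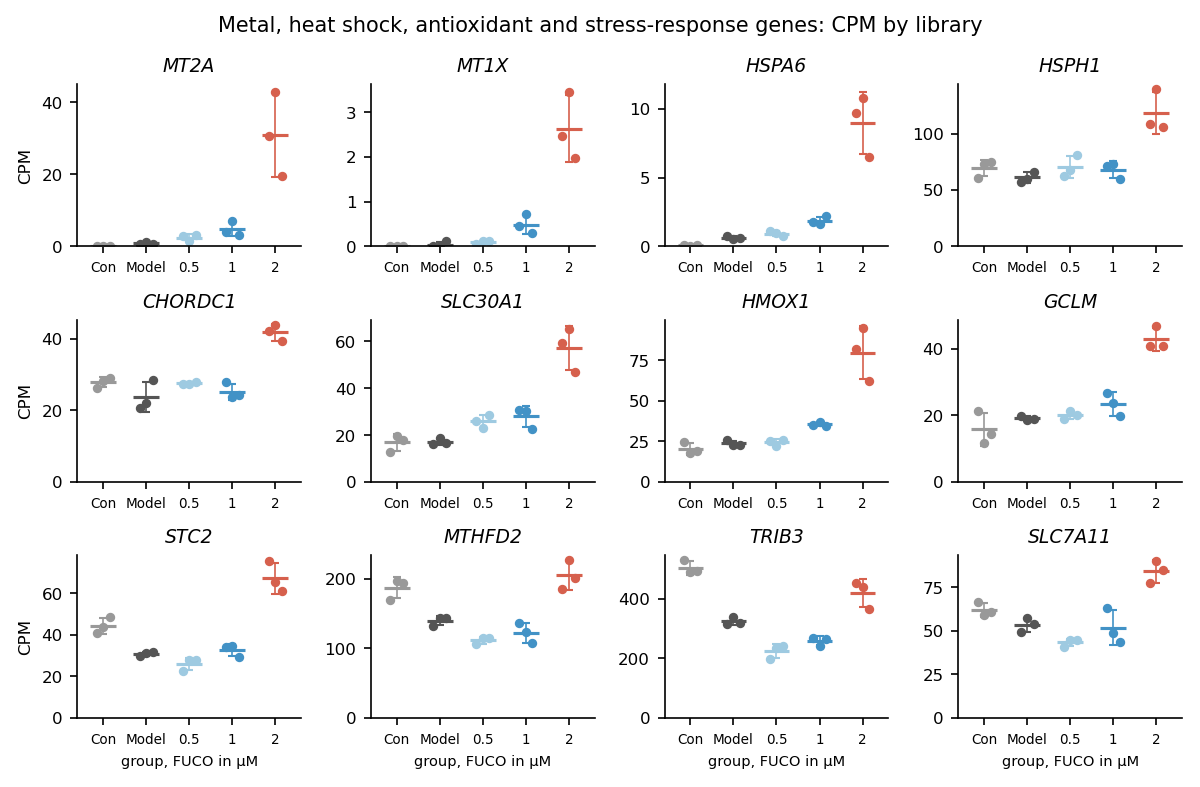
CPM (vertical axes, from 0) of 12 metal, heat shock, antioxidant and stress-response genes in the 3 libraries (points) of Con, Model and FUCO at 0.5, 1 and 2 µM, with the group mean (thick line) and SD (bar). In every panel the 3 libraries at 2 µM lie above the 3 at 1 µM, and for MT2A they lie between 19.6 and 43.0 CPM against 3.20 to 6.99 CPM.

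The integrated stress response was the list with the highest share of risers. Of its 30 tested members 24 rose by the adjusted p, compared with 4.07% of all tested genes, and none fell. All 30 had a log2 fold change above 0, and the median was 0.48. With any 1 of the 6 libraries left out 20 to 24 rose, and 17 rose without FUCO-2 replicate 1 and FUCO-1 replicate 3 together. STC2, a secreted glycoprotein, had 34.0, 34.7 and 29.4 CPM at 1 µM and 75.6, 65.4 and 61.1 CPM at 2 µM (log2 fold change 1.04 ± 0.09, edgeR adjusted p = 2.06e-07). GDF15, a secreted stress hormone, went from 135, 144 and 149 CPM to 358, 382 and 238 CPM (1.20 ± 0.16, edgeR adjusted p = 6.25e-05). PPP1R15A, the phosphatase subunit that reverses the eIF2α signal, rose from 69.6, 82.6 and 72.2 CPM to 148, 139 and 126 CPM (0.88 ± 0.07, edgeR adjusted p = 2.06e-07). MTHFD2, a mitochondrial folate enzyme, rose by 0.75 ± 0.09 (edgeR adjusted p = 8.61e-06), from 136, 124 and 107 CPM to 186, 228 and 202 CPM. TRIB3, a pseudokinase that restrains ATF4, rose by 0.70 ± 0.08 (edgeR adjusted p = 1.12e-05), from 269, 243 and 266 CPM to 455, 442 and 367 CPM. ATF4 itself was at a log2 fold change of 0.14 and did not pass.

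The C/EBP-ATF element bound by ATF4 dimers was searched as TGATGNAAN on both strands. Its letters were found in 22.2% of the 27 matched promoters of the integrated stress response list, 7.55% of the 53 promoters of DEGs that rose and 1.76% of the 11524 promoters of tested genes. It is shown for ASNS, CHAC1 and ATF3, where the match lies before the start, with 20 bases on either side.
ASNS, chr7:97872448-97872496, minus strand: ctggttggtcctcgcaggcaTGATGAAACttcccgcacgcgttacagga
CHAC1, chr15:40953241-40953289, plus strand: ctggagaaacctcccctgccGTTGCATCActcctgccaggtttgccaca
ATF3, chr1:212565196-212565244, plus strand: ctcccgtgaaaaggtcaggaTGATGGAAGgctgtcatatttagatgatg
ASNS, asparagine synthetase, rose from 4.51, 4.04 and 4.68 CPM to 7.26, 7.24 and 6.94 CPM (0.70 ± 0.16 on the log2 scale, edgeR adjusted p = 0.00998). CHAC1, which degrades glutathione, was at 54.3, 43.7 and 60.3 CPM and then at 82.0, 60.1 and 67.5 CPM (0.40 ± 0.11, edgeR adjusted p = 0.0294), with overlap between its doses. The antioxidant response element, searched as TGACNNNGC, was in 17% of the promoters of DEGs that rose and 15.1% of all of them, and the cAMP response element TGACGTCA in 3.77% and 3.13%. By list, the antioxidant response element was in 28.0% of the 25 matched promoters of the NRF2 list. In the integrated stress response list it was in 37.0% of the 27.

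Chaperones of the endoplasmic reticulum did not follow the cytosolic ones. Of 21 tested genes of the unfolded protein response, 3 rose, 5 fell and 13 did not pass, with a median log2 fold change of -0.10. Over all tested genes 4.07% rose and 2.23% fell. The sensors were among the risers: ERN1, the kinase and nuclease IRE1, went from 36.7, 37.4 and 34.6 CPM to 60.6, 68.6 and 54.7 CPM (0.76 ± 0.08, edgeR adjusted p = 5.14e-06), and ATF6 was higher by 0.29 on the log2 scale. DNAJB9 was the third riser, at 0.48. CALR, the calcium-binding lectin calreticulin, fell from 1431, 1296 and 1486 CPM to 1103, 1012 and 1078 CPM (-0.40 ± 0.07, edgeR adjusted p = 0.00113). MANF, a secreted factor of the reticulum, fell from 57.9, 47.3 and 51.7 CPM to 40.1, 37.9 and 39.0 CPM (-0.42 ± 0.09, edgeR adjusted p = 0.00411). The other members that fell were PDIA4, CRELD2 and SDF2L1, at -0.23, -0.35 and -0.47. The number of the list that fell was 3 without FUCO-1 replicate 1, and 2 without FUCO-1 replicate 3, FUCO-2 replicate 2, FUCO-2 replicate 3 or the pair of libraries that stood apart. The number that rose was 2 without FUCO-1 replicate 1, FUCO-1 replicate 3 or FUCO-2 replicate 2, and 1 without that pair.

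Most immediate early genes rose. Of 28 tested, 19 rose by the adjusted p, compared with 4.07% of all tested genes, and none fell. The median log2 fold change was 0.57. ATF3, a stress-induced repressor, went from 38.3, 42.5 and 37.4 CPM to 75.5, 98.1 and 101 CPM (1.21 ± 0.13, edgeR adjusted p = 3.74e-06). NR4A2, an orphan nuclear receptor, rose from 6.29, 6.39 and 5.14 CPM to 11.4, 11 and 17.3 CPM (1.15 ± 0.16, edgeR adjusted p = 9.74e-05). FOSL1, a partner of JUN, rose from 1.34, 1.58 and 1.03 CPM to 4.72, 4.84 and 2.95 CPM (1.66 ± 0.30, edgeR adjusted p = 0.00149). EGR1 was at 414, 422 and 449 CPM and then at 723, 598 and 582 CPM (0.57 ± 0.09, edgeR adjusted p = 0.0003). EGR2 had few counts, with 0.693, 0.546 and 0.571 CPM against 1.44, 1.28 and 2.02 CPM (1.37 ± 0.34, edgeR adjusted p = 0.0174), and did not pass without FUCO-1 replicate 2, FUCO-1 replicate 3 or FUCO-2 replicate 3. KLF4 was at 1.30 ± 0.32 (edgeR adjusted p = 0.0162), and was lost without FUCO-1 replicate 1, FUCO-1 replicate 3 or FUCO-2 replicate 3. NR4A1 had 16.1, 16.3 and 16.2 CPM at 1 µM and 39.1, 22.6 and 26.6 CPM at 2 µM (0.86 ± 0.17, edgeR adjusted p = 0.00336). The number of risers was 12 without FUCO-1 replicate 1 and 7 without FUCO-2 replicate 1 and FUCO-1 replicate 3 together, where NR4A1, at 0.60 with an edgeR adjusted p of 0.0853, no longer passed.

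Feedback genes of the MAPK pathway and targets of YAP, the coactivator of the Hippo pathway, rose in smaller number. Of 17 dual-specificity phosphatases, Sprouty proteins and related genes, 9 rose, compared with 4.07% of all tested genes, and none fell. The median log2 fold change was 0.34. DUSP5, a nuclear phosphatase of ERK, rose from 3.47, 6.83 and 4.11 CPM to 11.9, 13.9 and 11.6 CPM (1.38 ± 0.18, edgeR adjusted p = 5.29e-05). ETV4, an ETS factor induced by ERK, was at 37.9, 45.1 and 37.0 CPM and then at 73.2, 65.7 and 55.7 CPM (0.70 ± 0.12, edgeR adjusted p = 0.00068). With 1 library left out 5 to 7 of the list rose, with 5 without FUCO-1 replicate 3 or FUCO-2 replicate 2, and 3 rose without the pair that stood apart. Of 13 YAP targets 6 rose, again compared with 4.07% of all tested genes, with a median of 0.40. ANKRD1, a muscle and stress protein, went from 10.2, 26.0 and 9.31 CPM to 50.6, 59.9 and 37.7 CPM (1.71 ± 0.25, edgeR adjusted p = 0.000132). CCN2, a matrix-associated growth factor, rose from 263, 281 and 211 CPM to 354, 362 and 320 CPM (0.46 ± 0.09, edgeR adjusted p = 0.00226). Without the same pair of libraries 2 of the 13 rose. Of 16 genes of the TGFβ list 1 rose and 1 fell, near the 4.07% and 2.23% of all tested genes that rose and fell. Of the 16, 2 rose without FUCO-1 replicate 3 or FUCO-2 replicate 1 and 4 without FUCO-2 replicate 3. Without the pair 1 rose and none fell. In that list FN1, fibronectin, was lower by 0.26 ± 0.07 (edgeR adjusted p = 0.0276) and was lost without FUCO-1 replicate 1, FUCO-1 replicate 3 or FUCO-2 replicate 3. BMP2 was the single call of 12 BMP genes, at 0.59 ± 0.15 (edgeR adjusted p = 0.0154), and was lost without FUCO-1 replicate 1, FUCO-1 replicate 3 or FUCO-2 replicate 2. By number, 1 call in 12 is also near the share of all tested genes that rose. All 12 had a log2 fold change above 0, with a median of 0.38. Without the pair the median was 0.22 and no gene of that list passed.

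**Figure D2:**
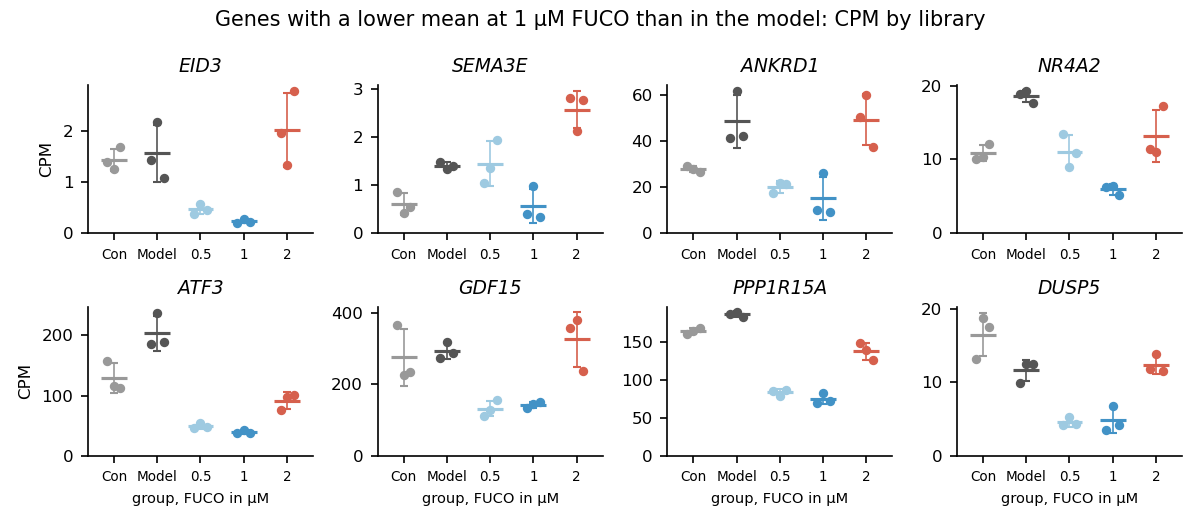
CPM (vertical axes, from 0) of 8 genes that rose from 1 to 2 µM FUCO and whose mean at 1 µM was under that of the model, with points for the 3 libraries of each group, a thick line for the mean and a bar for the SD. At 2 µM the means of GDF15 and DUSP5 were above that of the model, while ATF3, with 75.5 to 101 CPM, was below it.

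The FFA model gives the level from which these changes started. Comparisons of FUCO-1 and FUCO-2 with the model use the same libraries as the dose step, so their values are set side by side and not tested against each other. Of the 78 genes that rose, 44 had a mean below the model at 1 µM and above it at 2 µM, 29 were above it at both doses and 5 were below it at both. This split is by means alone and counts small differences, and the 78 were picked for a gap between the 2 doses. By the adjusted p, 13 of the 78 were lower than the model at 1 µM (2.32% of all genes tested) and 5 higher (0.893%). At 2 µM 59 were higher (10.8%) and 3 lower (9.71%). In 15 of the 78 the means rose in order from the model through 0.5 and 1 to 2 µM. Against the model, 42 of the 78 were DEGs higher at 2 µM (0.872% of all genes tested) and 2 were DEGs lower (0.728%), and at 1 µM 3 were DEGs higher (0.0412%) and 11 were DEGs lower (0.453%). MT2A had a mean of 0.808 CPM in the model, 2.39 at 0.5 µM, 4.72 at 1 µM and 31.0 at 2 µM, and its log2 fold changes against the model were 2.54 at 1 µM and 5.26 at 2 µM. HSPA6 followed the same order, with 0.622, 0.921, 1.86 and 9.01 CPM. GDF15 fell and came back, with 294 CPM in the model, 132 and 143 at 0.5 and 1 µM, and 326 at 2 µM. PPP1R15A had 186 CPM in the model, 83.2 and 74.8 at the lower doses and 137 at 2 µM. The 5 genes below the model at both doses were ATF3, EGR2, NR4A2, CXCL8 and the keratin KRT17. EGR2 was at 7.07 CPM in the model and at 0.604 and 1.58 CPM at 1 and 2 µM, so relative to the model it stood at -3.53 and -2.16 on the log2 scale.

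As lists, the immediate early genes had a median log2 fold change against the model of -1.09 at 1 µM and -0.51 at 2 µM, and the integrated stress response one of -0.16 and 0.31. The chaperones had 0.16 and 0.46, the NRF2 genes 0.20 and 0.45, and the cholesterol genes -0.16 and -0.44.

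**Figure D3:**
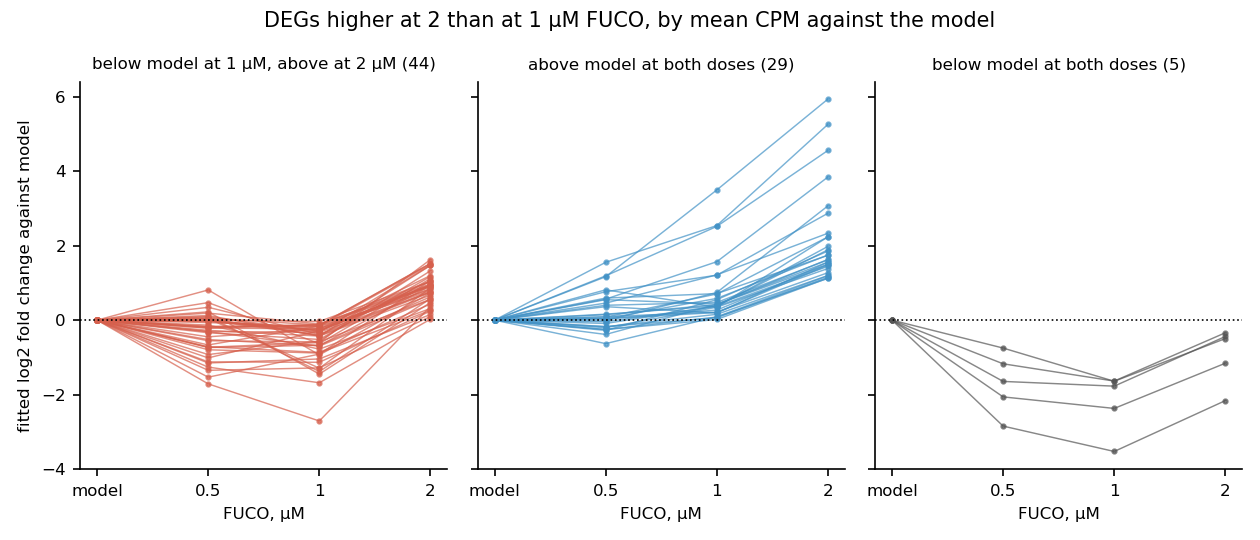
Fitted log2 fold change against the model (vertical axis) at 0.5, 1 and 2 µM FUCO (horizontal axis, model set at 0) of the 78 DEGs that were higher at 2 than at 1 µM, 1 line per gene. The 44 genes on the left lay below the model at 1 µM and above it at 2 µM by mean CPM, the 29 in the middle above it at both and the 5 on the right below it at both. The panels are split by means alone, whether or not a difference from the model passed the adjusted p.

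Whether the step from 1 to 2 µM differed from the step from 0.5 to 1 µM, each a doubling of the dose, was tested by the contrast between the 2 steps, which allows for the FUCO-1 libraries they share. Of all tested genes 17 passed the adjusted p (0.117%), 16 with a higher value in the second step (0.11%) and 1 with a lower one (0.00687%), and 1447 had an unadjusted p under 0.05 (9.94%). PPP1R15A changed by -0.15 in the first step and 0.88 in the second, a difference of 1.03 ± 0.13 (edgeR adjusted p = 0.000631). NR4A2 changed by -0.89 and then 1.15, a difference of 2.04 ± 0.29 (edgeR adjusted p = 0.00184). ATF3 changed by -0.31 and 1.21, a difference of 1.52 ± 0.23 (edgeR adjusted p = 0.00375). NR4A1, SEMA3E, EID3, CHORDC1 and CCN2 passed as well, with edgeR adjusted p between 0.0146 and 0.0490. The test did not pass for MT2A, whose steps were 0.99 and 2.72 (edgeR adjusted p = 0.225), nor for HSPA6 (edgeR adjusted p = 0.295). The count of 17 rested on single FUCO-1 libraries, with 3 without FUCO-1 replicate 1, 28 without FUCO-1 replicate 2 and 1 without FUCO-1 replicate 3.

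Among the largest changes were genes of no list. EID3, an inhibitor of the coactivator p300 and a subunit of the SMC5/6 complex, had 4, 5 and 4 counts at 1 µM and 34, 25 and 48 counts at 2 µM. In CPM these were 0.198, 0.273 and 0.228 and then 1.96, 1.33 and 2.78, and the log2 fold change of 3.08 ± 0.37 (edgeR adjusted p = 1.45e-05) was the largest of all DEGs. EID3 lies at 104303739 to 104305205 on chromosome 12, inside the span of TXNRD1 at 104215779 to 104350307 (GRCh38.p14), and TXNRD1 rose by 0.37 ± 0.10 (edgeR adjusted p = 0.0285). Whether the counting used strand is not given in the sources used here, so reads of 2 overlapping genes cannot be told apart for certain. SEMA3E, a guidance ligand of plexin D1, had 0.396, 0.983 and 0.343 CPM and then 2.82, 2.13 and 2.78 CPM (2.15 ± 0.32, edgeR adjusted p = 0.000157). F2RL2, a thrombin receptor, went from 0.446, 0.765 and 0.171 CPM to 1.73, 2.87 and 2.43 CPM (2.33 ± 0.34, edgeR adjusted p = 0.000157). KLHDC7B rose by 1.88 ± 0.24 and the RNA-binding protein RBM24 by 1.66 ± 0.27. The noncoding RNAs LUCAT1 and VLDLR-AS1 rose by 1.66 ± 0.33 and 1.69 ± 0.36. For these genes the edgeR adjusted p ran from 2.87e-05 to 0.00549. Having no overlap between doses was part of the rule that picked the largest changes, so it adds no support for them. VLDLR-AS1 overlaps the start of VLDLR, a member of the integrated stress response list that rose by 0.72, and was lost without FUCO-1 replicate 3. The 6 DEGs that fell were low in counts, and 4 had a mean under 1 CPM. FRMPD1 fell from 1.09, 1.47 and 1.94 CPM to 0.691, 0.479 and 0.463 CPM (-1.44 ± 0.37, edgeR adjusted p = 0.0189). The noncoding RNA LOC101929719 fell from 3.32, 1.91 and 1.66 CPM to 0.749, 1.17 and 1.10 CPM (-1.20 ± 0.32, edgeR adjusted p = 0.0252). FRMPD1 was lost without FUCO-1 replicate 3, FUCO-2 replicate 2 or FUCO-2 replicate 3, and LOC101929719 without FUCO-1 replicate 1, FUCO-2 replicate 1 or FUCO-2 replicate 2.

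For chemokines and NF-κB genes 1 library carried much of the difference. CXCL8, a neutrophil chemokine, had 63.2, 116 and 60.2 CPM at 1 µM and 122, 341 and 125 CPM at 2 µM (1.30 ± 0.30, edgeR adjusted p = 0.00927). Without FUCO-2 replicate 2 the log2 fold change was 0.63 and did not pass, and the call was also lost without FUCO-1 replicate 1 or FUCO-1 replicate 3. CXCL2 and NFKBIA, with log2 fold changes of 0.97 ± 0.28 and 0.63 ± 0.19 (edgeR adjusted p = 0.0386 and 0.0457), had overlapping doses and the same high library, 63.7 and 276 CPM in FUCO-2 replicate 2 against 17.7 to 20.1 and 121 to 131 CPM in the other FUCO-2 libraries. Of the 18 tested genes 4 rose, NFKB2 being the other, compared with 4.07% of all tested genes. None of the 18 passed without FUCO-1 replicate 1, FUCO-1 replicate 3 or FUCO-2 replicate 2. Without FUCO-2 replicate 3 or FUCO-1 replicate 2 it was 8 that passed, and without FUCO-2 replicate 1 and FUCO-1 replicate 3 together it was 2, CXCL8 and CXCL2. CCL2 and TNF were at 0 counts in all 6 libraries, IL1B had 0 to 5 and IL6 0 to 1, so a difference in these was not detectable at this depth.

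Several secreted hepatocyte proteins fell and none rose. Of 29 tested, 11 fell by the adjusted p, compared with 2.23% of all tested genes. Of the 29, 28 had a log2 fold change below 0, and the median was -0.31. The summed level of the list was 65590 to 70520 CPM in the FUCO-1 libraries and 52320 to 56810 CPM in the FUCO-2 libraries. In bulk RNA, fewer cells making these proteins and less of their RNA per cell cannot be told apart. ALB, albumin, fell from 29358, 30302 and 30704 CPM to 21943, 23701 and 25696 CPM (-0.34 ± 0.09, edgeR adjusted p = 0.0186). TF, the iron carrier transferrin, fell from 4615, 3971 and 5075 CPM to 3095, 2585 and 3181 CPM (-0.62 ± 0.13, edgeR adjusted p = 0.00527). HPX, which binds free haem, fell from 15.8, 14.7 and 21.5 CPM to 11.2, 8.36 and 11.5 CPM (-0.75 ± 0.15, edgeR adjusted p = 0.00323), and FGB, a fibrinogen chain, from 59.7, 65.9 and 70.6 CPM to 46.6, 36.1 and 49.5 CPM (-0.57 ± 0.11, edgeR adjusted p = 0.0037). In each of the 4 the highest FUCO-2 library was below the lowest FUCO-1 library. The number that fell was 3 without FUCO-1 replicate 3, 3 without FUCO-2 replicate 2, 5 without FUCO-2 replicate 1 and 3 without FUCO-2 replicate 1 and FUCO-1 replicate 3 together, with the median between -0.34 and -0.25. Of the 14 hepatocyte transcription factors tested, among them HNF4A at -0.20 and CEBPA at -0.10, none passed.

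Genes of sterol and fatty acid synthesis that passed the test were lower at 2 µM, while more of them did not pass. Of 24 cholesterol genes 10 fell and none rose, compared with 2.23% of all tested genes that fell. The median log2 fold change was -0.27, and 22 of the 24 were below 0. The doses did not overlap, with FUCO-2 lower, for 13 of the 24, compared with 9.23% of all tested genes. FDPS, which makes farnesyl diphosphate, went from 392, 378 and 431 CPM to 269, 318 and 308 CPM (-0.42 ± 0.08, edgeR adjusted p = 0.0011), and EBP, a sterol isomerase, from 79.3, 74.1 and 88.5 CPM to 50.7, 60.8 and 63.5 CPM (-0.47 ± 0.09, edgeR adjusted p = 0.00233). The factor SREBF2, at 0.01, did not pass. The count was 5 without FUCO-1 replicate 3, 6 without FUCO-2 replicate 2, 6 without FUCO-2 replicate 3 and 4 without FUCO-2 replicate 1 and FUCO-1 replicate 3 together. Of 19 genes of fatty acid and triglyceride synthesis 4 fell, with a median of -0.25, and 5 of the 19 had a log2 fold change above 0. The number that fell was 8 without FUCO-2 replicate 1, and 4 without FUCO-2 replicate 1 and FUCO-1 replicate 3 together. SCD, a fatty acid desaturase, fell from 3765, 3539 and 3658 CPM to 2828, 2882 and 2795 CPM (-0.37 ± 0.08, edgeR adjusted p = 0.0102), and PNPLA3, a lipid droplet hydrolase, from 124, 108 and 136 CPM to 93.7, 90.8 and 87.5 CPM (-0.44 ± 0.09, edgeR adjusted p = 0.00377). FABP1, the fatty acid binding protein of liver, went from 702, 701 and 840 CPM to 475, 562 and 600 CPM (-0.45 ± 0.11, edgeR adjusted p = 0.0115). It was 1 of the 2 that fell among 24 genes of fatty acid uptake and oxidation, with the carnitine carrier SLC25A20 at -0.39 ± 0.12 (edgeR adjusted p = 0.0436). Both were lost without FUCO-1 replicate 3, and SLC25A20 also without FUCO-1 replicate 1, FUCO-2 replicate 1 or FUCO-2 replicate 2. None of the 24 passed without FUCO-1 replicate 3, alone or with FUCO-2 replicate 1.

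Other lipid genes that the study measured by other means did not pass. CD36, the fatty acid transporter, had 2.13, 1.42 and 2.06 CPM at 1 µM and 1.67, 1.49 and 2.37 CPM at 2 µM, with a log2 fold change of -0.03 ± 0.34 (edgeR adjusted p = 0.978), an error that covers changes in both directions. PLIN2, the main coat protein of lipid droplets, was at 687, 746 and 710 CPM and then at 575, 725 and 634 CPM (-0.15 ± 0.08, edgeR adjusted p = 0.3), and none of the 13 lipid droplet genes passed. FASN and its regulator SREBF1 were high in FUCO-2 replicate 1. FASN had 2258, 1992 and 2537 CPM at 1 µM and 2422, 1641 and 1521 CPM at 2 µM (-0.28 ± 0.12, edgeR adjusted p = 0.185), and SREBF1 had 269, 270 and 302 CPM and then 321, 201 and 223 CPM (-0.17 ± 0.11, edgeR adjusted p = 0.409). Without FUCO-2 replicate 1 both passed as lower, FASN at -0.52 (edgeR adjusted p = 0.00193) and SREBF1 at -0.40 (edgeR adjusted p = 0.00424). With all 6 libraries and no filter on low counts FASN passed as well, at -0.28 (edgeR adjusted p = 0.00683). CPT1A, the entry step of mitochondrial oxidation, was at -0.20 ± 0.07 (edgeR adjusted p = 0.0991) and passed without FUCO-1 replicate 2. PPARA, ACACA, DGAT2 and ACSL1 were at -0.11, 0.04, 0.01 and 0.28, with edgeR adjusted p from 0.0852 to 0.979.

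**Figure D4:**
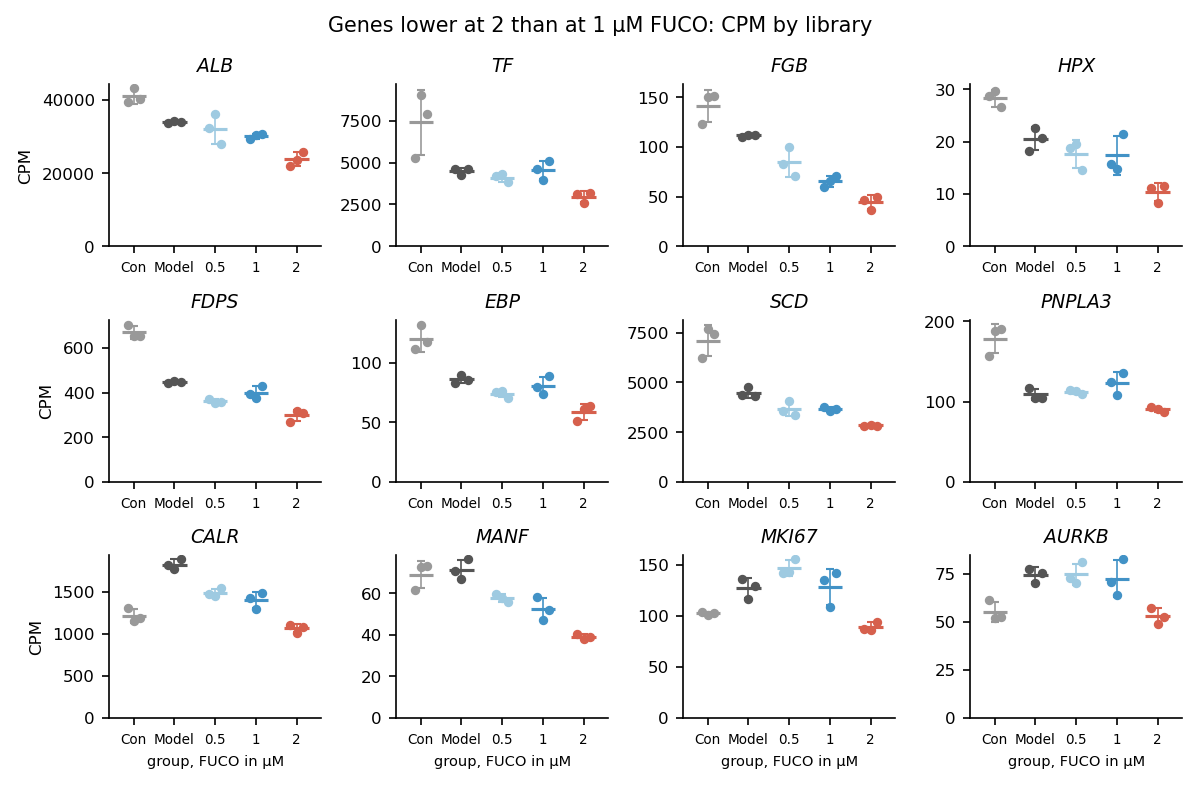
CPM (vertical axes, from 0) of 12 genes that were lower at 2 than at 1 µM FUCO, in the 3 libraries (points) of Con, Model and FUCO at 0.5, 1 and 2 µM, with the group mean (thick line) and SD (bar). The steps were small beside those of the risers, and ALB at 2 µM held 21943 to 25696 CPM against 29358 to 30704 CPM at 1 µM.

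The replication and mitosis genes that passed were lower at 2 µM. Of 26 tested, 5 fell by the adjusted p and none rose, compared with 2.23% of all tested genes that fell. The median log2 fold change was -0.16, and 24 of the 26 were below 0. The doses did not overlap, with FUCO-2 lower, for 12 of the 26, compared with 9.23% of all tested genes. MKI67, the proliferation marker Ki-67, fell from 135, 108 and 141 CPM to 87.1, 86.2 and 94.1 CPM (-0.52 ± 0.08, edgeR adjusted p = 0.000435), and the mitotic kinase AURKB from 70.8, 64.0 and 82.9 CPM to 57.4, 48.6 and 52.5 CPM (-0.46 ± 0.09, edgeR adjusted p = 0.00335). The count was 3 without FUCO-1 replicate 1, FUCO-1 replicate 2 or FUCO-2 replicate 1, and 2 without FUCO-1 replicate 3, without FUCO-2 replicate 2, or without FUCO-2 replicate 1 and FUCO-1 replicate 3 together. CDKN2B, an inhibitor of cyclin D kinases, rose from 13.5, 11.9 and 10.4 CPM to 26.5, 27.1 and 20.4 CPM (1.04 ± 0.13, edgeR adjusted p = 1.46e-05). It was 1 of 3 risers among 11 growth arrest genes, compared with 4.07% of all tested genes that rose. The others were GADD45A at 0.53 and GADD45B at 0.52, while CDKN1A at -0.39 did not pass. GADD45A was lost without FUCO-1 replicate 1 or FUCO-1 replicate 3, and 2 of the list rose without FUCO-2 replicate 1 and FUCO-1 replicate 3 together.

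Several pathways that could bear on a carotenoid showed few or no calls. Over all tested genes 4.07% rose and 2.23% fell by the adjusted p. None of 16 genes of the aryl hydrocarbon receptor and drug metabolism passed, with CYP1A1 at a log2 fold change of 0.42. Of 14 genes of carotenoid and retinoid metabolism none rose and 1 was lower by the adjusted p, and none passed without FUCO-2 replicate 1 and FUCO-1 replicate 3 together. None of 31 proteasome subunits, 8 interferon-stimulated genes, 5 stellate cell or fibroblast markers, 2 macrophage or leukocyte markers and 1 endothelial marker that were tested passed. Of 5 cholangiocyte markers SOX9 was higher, at 0.48 ± 0.13 (edgeR adjusted p = 0.0276), with overlapping doses, and was lost in 4 of the 6 fits that left out a library and without the pair that stood apart. Of 17 hypoxia and glycolysis genes 3 rose, VEGFA, HK2 and SLC2A1, and 2 fell, NDRG1 and LDHA, but 1 rose without FUCO-1 replicate 1, FUCO-1 replicate 3, FUCO-2 replicate 1 or FUCO-2 replicate 2, and none fell without FUCO-2 replicate 2. Without FUCO-2 replicate 1 and FUCO-1 replicate 3 together none rose and 2 fell, with VEGFA at 0.29 (edgeR adjusted p = 0.0568) and HK2 at 0.31 (edgeR adjusted p = 0.217). With all libraries MAP1LC3B, at 0.42 ± 0.09 (edgeR adjusted p = 0.00604), was the single call of 11 autophagy genes. IRS2, at 0.53 ± 0.10 (edgeR adjusted p = 0.00198), was that of 14 genes of the TXNIP and FOXO list. RRP12, at 0.53 ± 0.14 (edgeR adjusted p = 0.0196), was that of 16 ribosome biogenesis genes. By number, single calls in lists of these sizes are near the share of all tested genes that rose. MAP1LC3B was lost without FUCO-1 replicate 3, and 2 autophagy genes rose without FUCO-1 replicate 2 or FUCO-2 replicate 1. Without the pair that stood apart IRS2 was at 0.37 (edgeR adjusted p = 0.0695) and no gene of its list passed. In that list 2 rose without FUCO-1 replicate 1, and 2 rose and 2 fell without FUCO-2 replicate 3. RRP12 was lost without any of FUCO-1 replicates 1 and 2 and FUCO-2 replicates 1 and 2, and no ribosome biogenesis gene passed without the pair, while 2 rose without FUCO-1 replicate 2 and 3 without FUCO-2 replicate 3.

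**Figure D5:**
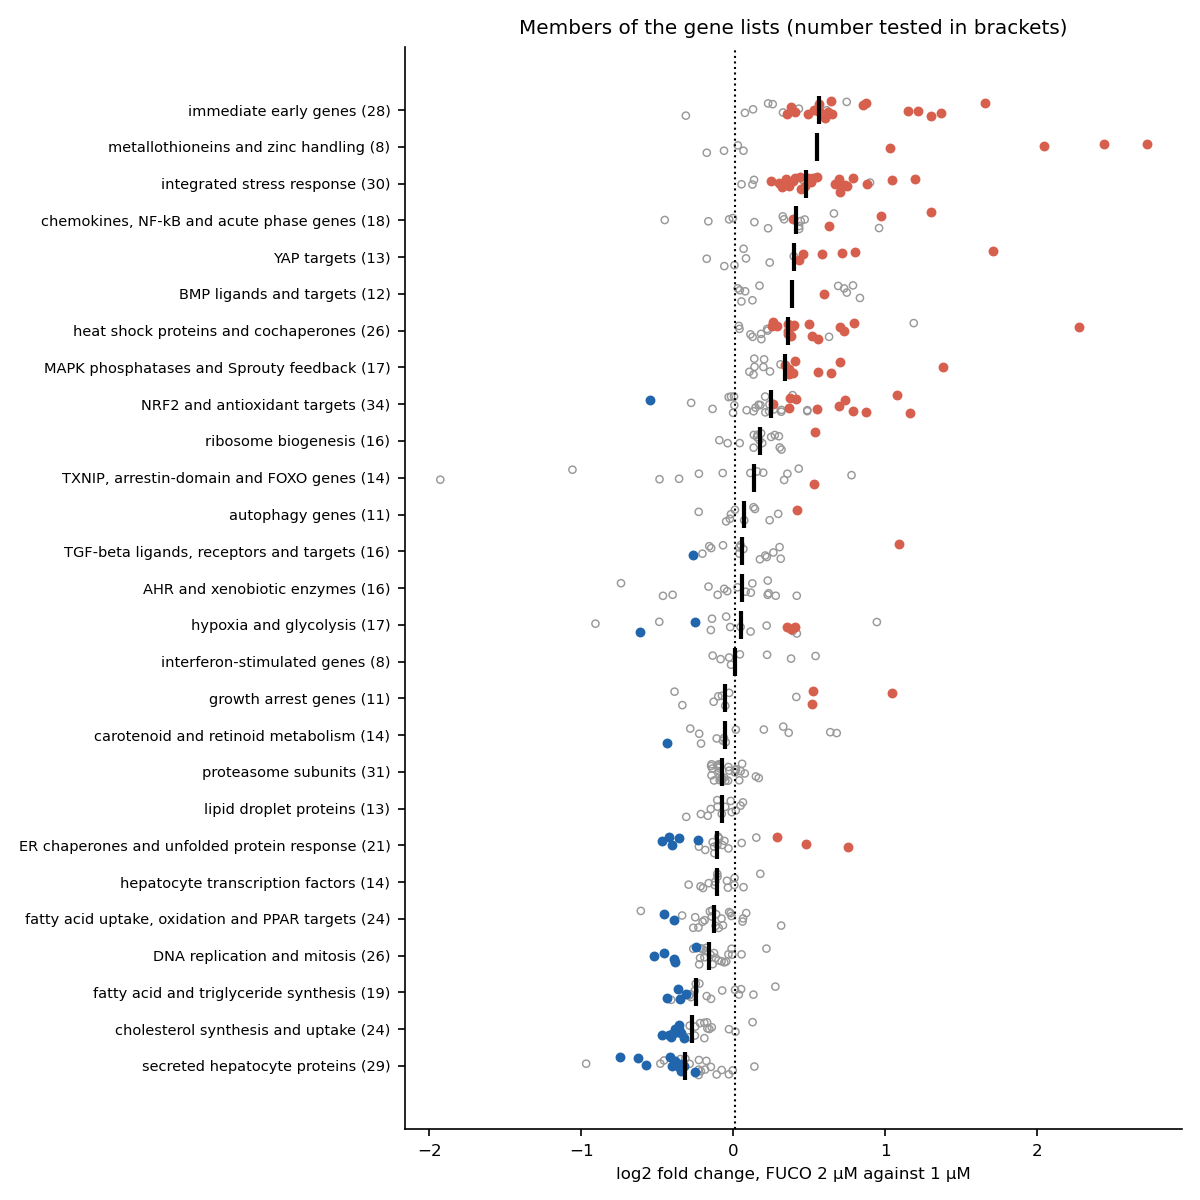
Log2 fold change from 1 to 2 µM FUCO (horizontal axis) of the tested members of each gene list (rows, number tested in brackets), with filled red points for genes that rose by the adjusted p, filled blue points for genes that fell, open points for the rest, a black bar for the list median and a dotted line for the median of all genes tested. Immediate early genes, with a median of 0.57, stand at the top, and secreted hepatocyte proteins, with a median of -0.31, at the bottom.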

How the data were processed

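RNA of Hep3B cells was enriched for poly(A) and sequenced by the authors, who trimmed reads with fastp, aligned them with STAR to GRCh38.p14 and counted them per gene with featureCounts. The deposited values are raw read counts, 1 column per library, with no normalization, and all 18 columns were used. Of 36684 genes, the 14557 that passed filterByExpr (minimum count 10) held 99.9% of the counts. Counts were fitted in all 18 libraries with edgeR 4.0.16 (limma 3.58.1, R 4.3.3) after TMM scaling, with 1 mean per group, and the FUCO-2 minus FUCO-1 contrast was tested by the quasi-likelihood F test with Benjamini-Hochberg adjustment over all tested genes. The SE of a log2 fold change is its size divided by the square root of F. The script was tested on simulated counts.

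Named genes were up to 12 DEGs in each direction with the largest change, a mean of at least 1 CPM over the 6 libraries and no overlap between doses, every DEG of 32 gene lists, up to 3 further members of each list with the smallest adjusted p, and the genes that the study measured by other means. Other genes were named after their values were seen. The members and lists were chosen with earlier results of these data known. Positions came from the RefSeq table of GRCh38.p14 (14463 symbols matched) and promoters from RefSeq, 300 bases each (11524 matched). Alternatives were DESeq2 1.42.0, other libraries in the fit, RLE factors, other filters, the replicate number as a block, glmTreat, protein-coding genes alone and leaving libraries out. Mitochondrially encoded genes were not analysed here. Counting error depends on depth, between 16916688 and 20203213 counts in the 6 libraries. Some genes are not reported here.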

Additional observations from a re-analysis of the deposited data

Results flagged for a closer look

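The step from 1 to 2 µM FUCO differed from the step from 0.5 to 1 µM in 17 genes by the edgeR test of the difference itself. Of the genes named in the report, 8 were among them. The difference between the steps, on the log2 scale, was 4.07 for EID3, 3.49 for SEMA3E, 2.04 for NR4A2, 1.63 for NR4A1, 1.52 for ATF3, 1.03 for PPP1R15A, 0.85 for CHORDC1 and 0.74 for CCN2. Groups of 3 libraries were not tested for single outlying values.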

How the results depend on the processing

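The 84 DEGs were 45 when at least 10 counts were required in every library, 917 with no fold change threshold and 3 (EID3, MT2A and HSPA6) by glmTreat at a log2 threshold of 1. They were 39 without FUCO-2 replicate 1 and FUCO-1 replicate 3 together, and 54 to 102 with 1 library left out, the lowest without FUCO-1 replicate 3. DESeq2 gave 64 in all 18 libraries and 62 in the 6 alone. Between libraries of the 2 doses with the same replicate number, deviations from the group means correlated at -0.164, 0.155 and -0.121 for replicates 1, 2 and 3. With so few libraries these values cannot decide whether the numbers pair them. As a block the replicate numbers gave 88 DEGs, 83 of them shared, with ACSL1 passing at 0.28 (edgeR adjusted p = 0.0494). The highest such correlation between the doses, 0.277, was between FUCO-1 replicate 3 and FUCO-2 replicate 1, the 2 libraries that stood apart. The 17 genes whose steps differed were 63 by DESeq2, 11 without the RES libraries, 192 with no filter, 11 with at least 10 counts in every library, 19 with the replicate block, 3 without FUCO-2 replicate 1 and FUCO-1 replicate 3 together, and 1 to 28 with 1 library left out. The cause of these differences was not tested. Of 87 named genes, 28 no longer passed without the 2 libraries that stood apart. Direction reversed for 3 genes that had not passed. With 1 library left out CD36 ran from -0.25 to 0.11, ACACA from -0.13 to 0.12 and DGAT2 from -0.062 to 0.10, and without both outlying libraries CD36 was at 0.10. Of the 84 DEGs, 15 that rose and 4 that fell had a mean under 1 CPM over the 6 libraries, where few counts limit the precision.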

Other observations

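Ligands and surface proteins outside the gene lists were among the DEGs that rose. They were chosen after their values were seen. EREG, a ligand of the EGF receptor, had 54.7, 53.8 and 44.3 CPM at 1 µM and 105, 133 and 101 CPM at 2 µM, a log2 fold change of 1.15 ± 0.13 (edgeR adjusted p = 8.61e-06). AREG, another ligand of that receptor, had 30.8, 37.6 and 25 CPM and then 70.4, 76.7 and 59.4 CPM (1.14 ± 0.17, edgeR adjusted p = 0.000137). Against the FFA model, with which the dose step shares its libraries, EREG was at -0.88 at 1 µM and 0.26 at 2 µM, and AREG at -0.58 and 0.56. LIF, a cytokine of the gp130 family, went from 4.51, 8.14 and 4.46 CPM to 17, 17.8 and 9.43 CPM (1.38 ± 0.22, edgeR adjusted p = 0.000317), and SOCS2, a suppressor of cytokine signals, from 1.93, 3.22 and 2.06 CPM to 6.57, 5.11 and 6.07 CPM (1.30 ± 0.20, edgeR adjusted p = 0.0003). SOCS2-AS1, its antisense neighbour, was also a DEG, at 1.92 on the log2 scale, and without a stated strand setting the reads of the 2 cannot be told apart for certain.

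Genes above the model at both doses included HKDC1, a hexokinase-like enzyme, with 24.0, 30.9 and 31.9 CPM at 1 µM and 66.8, 76.9 and 59.5 CPM at 2 µM (1.23 ± 0.14, edgeR adjusted p = 8.61e-06), against a mean of 24.0 CPM in the model. SLC6A15, a transporter of neutral amino acids, went from 2.58, 3.66 and 2.06 CPM to 8.81, 7.35 and 7.52 CPM (1.51 ± 0.19, edgeR adjusted p = 3.03e-05). TERT, the catalytic subunit of telomerase, had 0.990, 1.04 and 1.60 CPM and then 2.76, 3.19 and 1.85 CPM (1.12 ± 0.30, edgeR adjusted p = 0.0253), with a mean of 0.515 CPM in the model. GJA1, connexin 43 of gap junctions, was by its mean below the model at 1 µM, at 60.0 against 64.4 CPM, and above it at 2 µM. It rose from 46.3, 79.0 and 54.8 CPM to 162, 99.6 and 117 CPM (1.07 ± 0.20, edgeR adjusted p = 0.00145), its highest library being FUCO-2 replicate 1.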
